A study of Homo sapiens with 8 samples.

Results

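H19, MALAT1, NEAT1, GAS5, SNHG1, SNHG3, SNHG5, SNHG8 and SNHG12 are 9 long noncoding RNAs that were followed across 2 HER2-amplified breast cancer cell lines treated with a HER2 kinase inhibitor, a BET bromodomain inhibitor or both. The 9 RNAs were chosen by name from the 20531 genes of the tables, with their values in these libraries already known, so that their levels and changes are given as a description. All 9 passed the filter on low values, which kept 14429 genes. Polyadenylated RNA was sequenced from SKBR-3 cells, a line without estrogen and progesterone receptors, and from BT474m1 cells, a BT474 derivative in which both receptors are made. The cells were given the vehicle DMSO, 300 nM lapatinib, which inhibits the EGFR and HER2 kinases, 300 nM JQ1, which displaces BET proteins from acetylated histones, or lapatinib and JQ1 together, for 48 h per the labels. The labels name no genetic change beyond those of the lines, and within a line the groups differ in the drugs given. Each of the 8 groups held 1 library from 1 culture, so that no difference within a line could be set against a spread between replicates. Effects common to the lines were not tested, because the RNAs had been chosen on these values, and no p-value is given.

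Long noncoding RNAs are transcribed and often spliced like mRNAs but encode no long protein. H19 is an imprinted RNA, made from the maternal chromosome beside the growth factor gene IGF2, abundant in the fetus and switched back on in some breast cancers, and it is the precursor of the microRNA miR-675. MALAT1 and NEAT1 are neighbours that stay in the nucleus, MALAT1 in nuclear speckles, where splicing factors are stored, and NEAT1 as the scaffold of paraspeckles, bodies that hold RNA-binding proteins. GAS5 and the SNHG genes are host genes of small nucleolar RNAs (snoRNAs), which guide the modification of ribosomal RNA and are cut from the introns. The spliced host RNA that remains is often read by ribosomes near its start and removed by nonsense-mediated decay, a pathway that degrades RNAs with early stop codons, and it accumulates when translation slows. Many host genes start with a terminal oligopyrimidine (TOP) tract, the run of C and T that also begins ribosomal protein mRNAs and ties their translation to mTOR signalling.

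The values were normalised read counts, which the authors had divided by each library's upper quartile over genes above 0 and set to 1000 there. The libraries held between 21420113 and 34112379 reads on genes, and 1 read was worth between 0.471 and 0.766 units. The epithelial markers KRT8 (24517 to 211202), EPCAM (3300 to 6223) and ERBB2, the HER2 gene (94678 to 277872), were high in all 8 libraries. ESR1 and PGR lay between 190 and 12466 in BT474m1 and at or below 16.8 in SKBR-3. PTPRC, PECAM1 and COL1A2, markers of lymphocytes, endothelium and fibroblasts, reached at most 3.38. The fibroblast markers VIM and COL1A1 were higher in BT474m1 (204 to 1253) than in SKBR-3 (0 to 124). The 95% intervals given with values come from recovered read counts and cover counting error only.

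The start of a host gene shows whether it carries the TOP tract, and the mature miR-675 sequences show what H19 is cut into. Sequences come from the RefSeq tables of GRCh38.p14, which held a promoter for 8 of the 9 genes and both arms of miR-675. The arms of miR-675 lie within H19 on the minus strand, at chr11:1996800-1996822 and chr11:1996768-1996787, with the seed (bases 2 to 8) in capitals.
hsa-miR-675-5p: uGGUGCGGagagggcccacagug
hsa-miR-675-3p: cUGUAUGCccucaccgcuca
The arms have different seeds. No value for the mature microRNAs was used here.

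The windows of the 6 host genes run from 30 bases before the annotated start to 30 bases into the transcript. A TOP start was searched for on the gene's strand as a C, within 5 bases of the annotated start, followed by at least 4 bases that are each C or T, and it is shown in capitals.
GAS5, minus strand, chr1:173869016-173869075: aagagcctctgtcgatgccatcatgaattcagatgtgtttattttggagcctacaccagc
SNHG1, minus strand, chr11:62855856-62855915: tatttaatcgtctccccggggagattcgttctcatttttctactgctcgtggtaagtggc
SNHG3, plus strand, chr1:28505913-28505972: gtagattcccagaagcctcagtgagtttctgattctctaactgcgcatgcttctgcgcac
SNHG5, minus strand, chr6:85678704-85678763: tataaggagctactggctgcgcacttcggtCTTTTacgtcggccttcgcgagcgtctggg
SNHG8, plus strand, chr4:118278732-118278791: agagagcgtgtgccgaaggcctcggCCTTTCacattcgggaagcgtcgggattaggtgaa
SNHG12, minus strand, chr1:28581844-28581903: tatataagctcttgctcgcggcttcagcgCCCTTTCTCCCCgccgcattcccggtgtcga
The tract was found in SNHG5, SNHG8 and SNHG12, with the longest run, 12 bases, in SNHG12. It was not found in the windows of GAS5, SNHG1 and SNHG3, which says only that these letters are not at these annotated starts. The same search matched 21.1% of all 35116 promoters. Counted by gene, with a match at any annotated start, it was found in 6886 of 27305 genes, 54 of 63 ribosomal protein genes and 7 of 10 other snoRNA host genes. Of the 3 remaining RNAs, MALAT1 had a match at 1 of its 2 annotated starts, H19 had none, and NEAT1 was not in the table. The E-box CACGTG, which reads the same on both strands and is bound by MYC among other factors, was in 0 of the 9 promoter windows of 300 bases from these genes, against 7.26% of all promoters.

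Lapatinib was accompanied by a lower H19 value in both lines. MALAT1 was higher with lapatinib and with JQ1 alone in both lines, and reached 2-fold only with lapatinib in BT474m1. NEAT1 rose with JQ1 alone in both lines and with lapatinib in BT474m1, where the log2 fold changes were 1.61 and 2.64. Of the 6 snoRNA host genes, all but SNHG1 rose in BT474m1 with lapatinib, SNHG5 by a margin that another scaling removed (log2 0.98 with the median of ratios). In SKBR-3 SNHG1 and SNHG3 fell and GAS5, SNHG5, SNHG8 and SNHG12 stayed within 2-fold of DMSO. A change is called a rise or a fall where the value was at least 2-fold higher or lower on the log2(value + 1) scale.

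**Figure D1:**
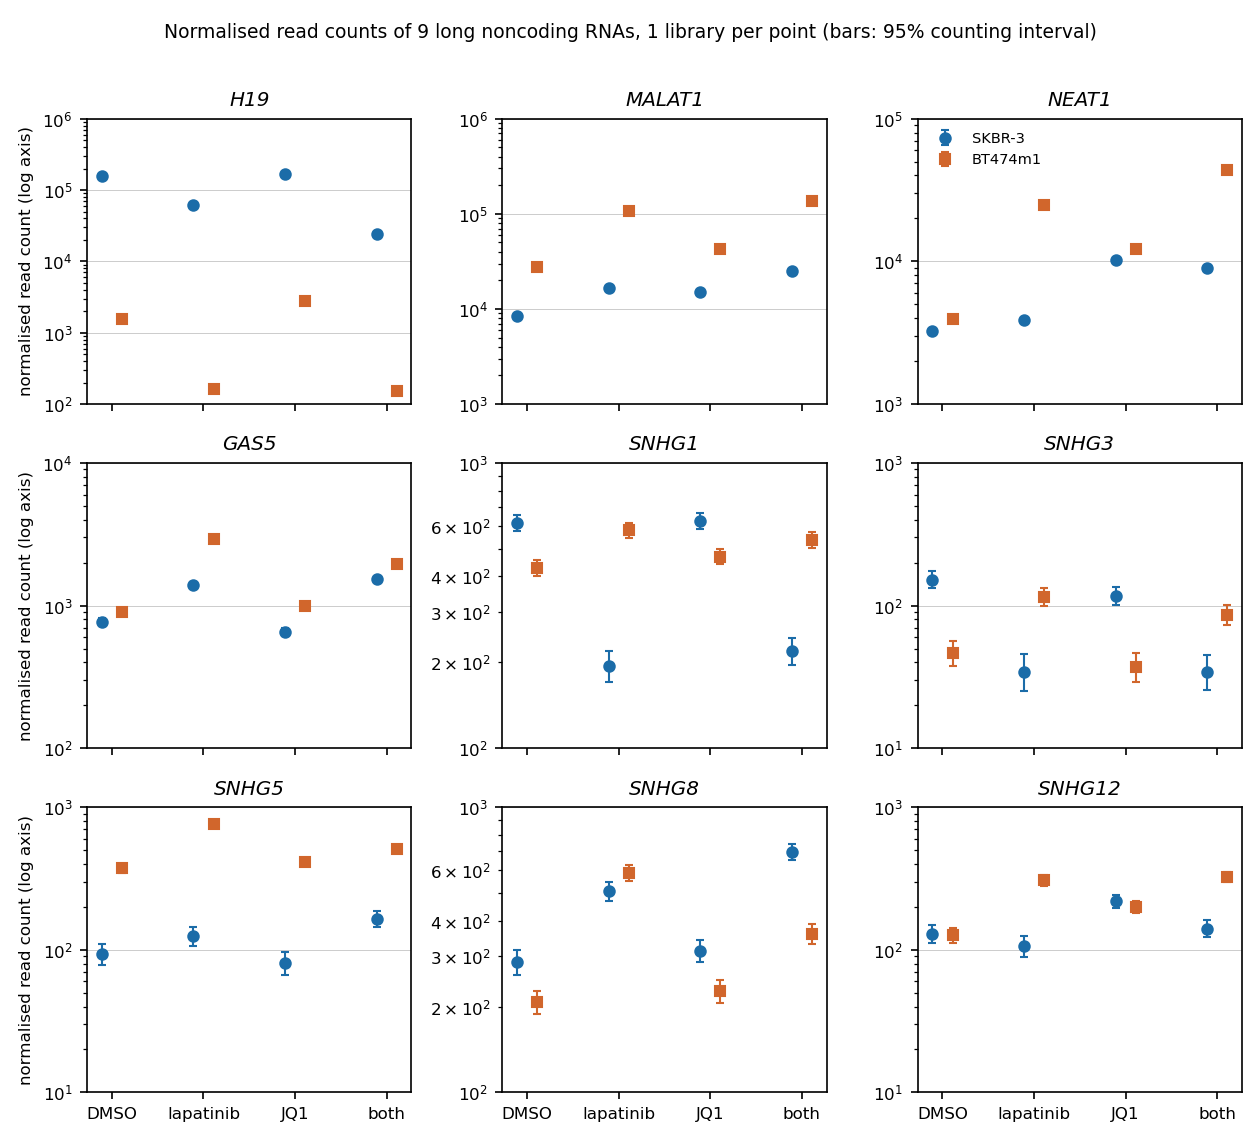
Normalised read counts (log axes, a separate range for each gene) of the 9 RNAs in the 8 libraries, with SKBR-3 as circles, BT474m1 as squares and bars for the 95% counting interval. H19 lies at 24475 units or above in every SKBR-3 library and at 2778 or below in every BT474m1 library, and MALAT1 lies higher in BT474m1 under each treatment.

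With lapatinib in SKBR-3, 0 of the 9 RNAs rose and 3 fell (H19, SNHG1 and SNHG3), where 11.1% of all kept genes rose and 9.44% fell. In BT474m1 lapatinib was accompanied by a rise in 7 of 9, all but H19 and SNHG1, and by a fall in H19, against 14% and 8.06% of all kept genes. With JQ1 only NEAT1 of the 9 rose in SKBR-3 and in BT474m1, and none of the 9 fell in either line. The shares over all kept genes with JQ1 were 3.75% up and 11.8% down in SKBR-3, and 4.81% up and 11.8% down in BT474m1.

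With both drugs against DMSO in SKBR-3, MALAT1, NEAT1 and SNHG8 rose and H19, SNHG1 and SNHG3 fell, with 10.8% of all kept genes up and 20.8% down. In BT474m1 the RNAs that rose with both drugs were MALAT1, NEAT1, GAS5 and SNHG12, and H19 fell, with 14.2% of all kept genes up and 15.3% down. Adding JQ1 to lapatinib gave 1 rise (NEAT1) and 1 fall (H19) in SKBR-3, where the background was 3.22% up and 16.2% down. In BT474m1 the same comparison gave 0 of 9 in either direction, beside 5.2% up and 12.5% down. Between the DMSO libraries, MALAT1 and SNHG5 were at least 2-fold higher in BT474m1 and H19 and SNHG3 at least 2-fold lower, where 26.8% of all kept genes were higher and 15.6% lower. Because the RNAs were picked with these values known, the counts describe them and are not set against the background shares as a result. The comparisons with DMSO share the DMSO library of a line, and both drugs against lapatinib shares its libraries with those comparisons.

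**Figure D2:**
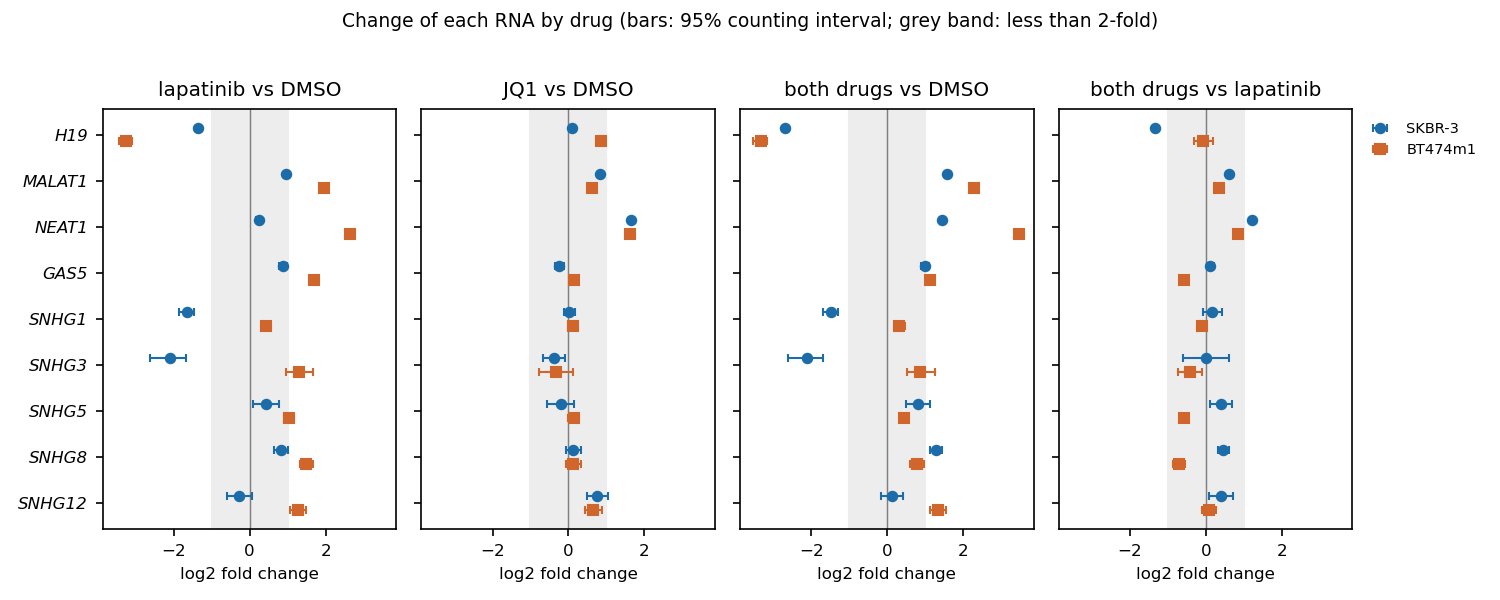
Log2 fold change of each RNA in 4 comparisons, with SKBR-3 as circles, BT474m1 as squares, bars for the 95% counting interval and a grey band for changes under 2-fold. H19 lies to the left of the band with lapatinib and with both drugs in both lines, and NEAT1 lies to the right of it with JQ1 in both lines.

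H19 read 159004, 62279.5, 169932 and 24475 units in SKBR-3 under DMSO, lapatinib, JQ1 and the combination, an order kept for every gene given by library. The BT474m1 libraries held 1545, 160.2, 2778 and 153 units. The lowest SKBR-3 library thus stood above the highest BT474m1 library, and the highest of the 8 values was 1112 times the lowest. With DMSO, H19 had the highest value of all genes in SKBR-3 (222128 reads, 1.01% of the summed values), whereas it ranked 2636th in BT474m1. The other SKBR-3 libraries had it at rank 8 under lapatinib, 6 under JQ1 and 47 under the combination. The 2 lowest values, those of the BT474m1 libraries given lapatinib alone or with JQ1, were the only neighbours in the order whose counting intervals overlapped.

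Per kilobase of its longest transcript in GENCODE, H19 stood at 66362 units in SKBR-3 with DMSO, and MALAT1, the next of the 9 RNAs, at 814. H19 was the highest of the 9 per kilobase in all 4 SKBR-3 libraries. With the shortest transcripts, MALAT1 came before it in the library with both drugs. In BT474m1 MALAT1 was the highest of the 9 in all 4 libraries by each length. H19 stood there above 7 of the other 8 with DMSO and above 1 with lapatinib by the longest transcripts, above 7 and 2 by the canonical ones, and above 6 and 0 by the shortest.

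H19 fell by 1.35 on the log2 scale with lapatinib in SKBR-3 (2.55-fold, 95% interval -1.36 to -1.34). In BT474m1 it fell by 3.26 (9.59-fold, -3.45 to -3.09), and 1.48% of all kept genes had a lower log2 fold change there. With JQ1 its log2 fold change was 0.10 in SKBR-3 and 0.85 in BT474m1. Under the combination H19 fell by 2.70 in SKBR-3, and it fell by 3.33 in BT474m1. In SKBR-3, adding JQ1 to lapatinib lowered H19 a further 2.54-fold, a change below which lay 11.2% of all kept genes, although JQ1 alone left it near the DMSO value. In BT474m1 the same comparison gave -0.07 on the log2 scale (-0.32 to 0.18). The change with both drugs was 1.44 lower on the log2 scale than the sum of the single drug changes in SKBR-3 and 0.91 lower in BT474m1, and both departures lay within the central 95% of all kept genes (-1.74 to 1.30 and -1.38 to 1.36). In bulk libraries such as these, fewer cells that express an RNA and less of it per cell cannot be told apart. The difference between the lines with DMSO was -6.68 on the log2 scale (103-fold lower in BT474m1), and it lay between -8.59 and -5.93 over the 4 treatments.

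IGF2, the paternally expressed growth factor gene beside H19, was between 0.602 and 13.8 units in the 8 libraries, and INS-IGF2 was listed at 0. MRPL23, a mitochondrial ribosomal protein gene that overlaps H19 in the RefSeq gene spans, read 603, 373, 298 and 156 units in SKBR-3 and 330, 209.6, 155 and 90.4 in BT474m1. Unlike H19 it had its 2 lowest values in each line in the JQ1 libraries. Of 11 genes listed for the imprinted cluster around H19 on the short arm of chromosome 11, 10 were in the tables and 7 passed the filter. With lapatinib 3 of the 7 rose and 2 fell in SKBR-3, and 1 rose and 2 fell in BT474m1. Genes that passed the filter through 1 line alone were not set aside in these counts. IGF2, which passed through SKBR-3 alone, was among the falls in BT474m1. It read 6.60 units there with DMSO and 0.602 with lapatinib, the latter below the value of 3 reads. PHLDA2, a maternally expressed gene that limits placental growth, had the lowest log2 fold change of the list with lapatinib in both lines (-3.47 in SKBR-3 and -2.42 in BT474m1). CDKN1C, a maternally expressed inhibitor of cyclin-dependent kinases, was the highest in both, with 1.43 units with DMSO and 9.19 with lapatinib in SKBR-3 and with 19.3 and 84.9 in BT474m1. The SKBR-3 value with DMSO lay below that of 3 reads.

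Of 9 listed factors that maintain the imprint or bind H19 and IGF2 RNA, 7 passed the filter. IGF2BP1 and HMGA2 were listed at 0 in all 4 SKBR-3 libraries and passed through BT474m1 alone. In SKBR-3 lapatinib was accompanied by a fall in 1 of the other 5, in BT474m1 by a fall in 2 of the 7, and none rose. The BT474m1 count does not set aside a gene that passed through SKBR-3 alone. DNMT1, the maintenance DNA methyltransferase, had the lowest log2 fold change in both lines, -1.77 and -1.10.

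MALAT1 stood at 8494, 16522, 15180.1 and 25283 units in SKBR-3 under DMSO, lapatinib, JQ1 and the combination. Its BT474m1 values were 27489, 106381, 42616 and 135223 units. The 8 intervals did not overlap between neighbours in the order, the DMSO library was the lowest of each line, and the library with both drugs was the highest. With both drugs MALAT1 had the highest value of all genes in BT474m1 (0.85% of the summed values), and it ranked 222nd with DMSO in SKBR-3. Its log2 fold change with lapatinib was 0.96 in SKBR-3 (0.93 to 0.99), just under 2-fold, and 1.95 in BT474m1 (1.94 to 1.97). With JQ1 it was 0.84 and 0.63. With both drugs MALAT1 rose by 1.57 in the former line and 2.30 in the latter, each within 0.29 of the sum of the single drug changes. The value in BT474m1 was higher than in SKBR-3 under every treatment, by 1.49 to 2.69 on the log2 scale.

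NEAT1 read 3275, 3861, 10259.7 and 8951 units in SKBR-3 under DMSO, lapatinib, JQ1 and the combination. The same treatments gave 3968, 24677, 12156 and 43995 units in BT474m1. The lines stood close to each other with DMSO and with JQ1, and the BT474m1 values were the higher in both libraries with lapatinib. NEAT1 rose 3.13-fold with JQ1 in SKBR-3 and 3.06-fold in BT474m1, log2 fold changes that were higher than those of 98.8% and 98.4% of all kept genes. With lapatinib the log2 fold change was 0.24 in SKBR-3 (0.18 to 0.30) and 2.64 in BT474m1 (2.60 to 2.67). With both drugs NEAT1 rose 2.73-fold in SKBR-3 and 11.1-fold in BT474m1. The difference between the lines was 0.28 with DMSO and 0.24 with JQ1 on the log2 scale, and 2.68 and 2.30 with lapatinib and with both drugs.

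MALAT1 and the long form of NEAT1 end in a folded structure in place of a poly(A) tail, so that what these libraries hold of them depends on the selection of RNA. Replication-dependent histone mRNAs, which also lack a poly(A) tail, were examined for this reason after their values had been seen. With JQ1, 39 of the 45 that passed the filter rose in SKBR-3 and 25 in BT474m1, with medians of 2.33 and 1.22 on the log2 scale. With lapatinib 5 rose and 16 fell in SKBR-3, and 11 rose and 10 fell in BT474m1. 1 of the 45, HIST1H3A, lay below the value of 3 reads in every BT474m1 library. The part of RNA selection in the MALAT1 and NEAT1 values was not tested.

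FRMD8, a protein-coding gene beside NEAT1, stayed within 2-fold of DMSO and had log2 fold changes between -0.05 and 0.78 for the 3 treatments against DMSO in the 2 lines. SLC25A45, a mitochondrial carrier family gene beyond FRMD8, rose by 1.56 with lapatinib and by 1.38 with both drugs in BT474m1. LTBP3, a latent TGF-beta binding protein gene on the MALAT1 side, rose by 1.43 there with lapatinib. In SKBR-3 their log2 fold changes with lapatinib were -0.07 and 0.53. All 9 listed paraspeckle proteins passed the filter, and none of them rose in any of these comparisons. Lapatinib was accompanied by a fall in 2 of the 9 in SKBR-3 and in none in BT474m1, JQ1 by no fall, and the combination by 2 falls in the former line and 3 in the latter. Their medians with lapatinib were -0.65 in SKBR-3 and -0.40 in BT474m1, beside 0.05 and 0.07 over all kept genes. DAZAP1, an RNA-binding protein of paraspeckles, was the lowest in both lines (-1.22 and -0.81). With JQ1 the medians were -0.04 and -0.27. Of 11 listed nuclear speckle proteins, lapatinib was accompanied by a fall in 5 in SKBR-3 and in 1 in BT474m1, and the splicing factor SRSF2 was the lowest in SKBR-3 (-1.80) and SRSF3 in BT474m1 (-1.29).

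Among the host genes, GAS5, whose spliced RNA restrains growth and whose introns hold box C/D snoRNAs, read 768, 1405, 652 and 1525 units in SKBR-3 under DMSO, lapatinib, JQ1 and the combination. For BT474m1 the values were 907, 2929, 996 and 1971 units. The libraries with lapatinib, with or without JQ1, held the highest 4 values. Its log2 fold change with lapatinib was 0.87 in SKBR-3 (0.76 to 0.98) and 1.69 in BT474m1 (1.61 to 1.77). With both drugs it was 0.99 and 1.12, and adding JQ1 to lapatinib gave 0.12 in SKBR-3 and -0.57 in BT474m1.

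SNHG5, host of SNORD50A and SNORD50B, read 93.1, 125, 80.5 and 164 units in SKBR-3 in the same order. Its BT474m1 libraries, at 373, 763, 411 and 506 units, all lay above those of SKBR-3. SNHG8, host of SNORA24, read 286, 508, 313 and 696 units in SKBR-3 and 207, 586, 227 and 359 in BT474m1. For both genes the highest SKBR-3 library was that with both drugs and the highest BT474m1 library that with lapatinib alone. The log2 fold changes of SNHG5 with lapatinib were 0.42 in SKBR-3 (0.08 to 0.77) and 1.03 in BT474m1 (0.90 to 1.16). SNHG8 had 0.83 in SKBR-3 (0.65 to 1.01) and rose 2.82-fold in BT474m1 (log2 interval 1.34 to 1.67). Adding JQ1 to lapatinib gave 0.45 in SKBR-3 and -0.71 in BT474m1 for SNHG8, and 0.39 and -0.59 for SNHG5.

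SNHG1, host of 8 listed box C/D snoRNAs, read 616, 194, 627 and 219 units in SKBR-3, again for DMSO, lapatinib, JQ1 and the combination. BT474m1 gave 429, 580.1, 469.6 and 537 units. The 2 SKBR-3 libraries with lapatinib were the lowest of all 8, and the 2 without it the highest. SNHG1 fell 3.15-fold with lapatinib in SKBR-3 (log2 -1.66, -1.87 to -1.46), and its log2 fold change in BT474m1 was 0.43 (0.30 to 0.57). With JQ1 it was 0.03 and 0.13.

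SNHG3, host of SNORA73A and SNORA73B, read 152, 34.5, 117 and 34.4 units in SKBR-3. In BT474m1 these treatments gave 46.7, 116, 37.2 and 86.3 units. The lines were in opposite order with and without lapatinib. SNHG3 fell 4.31-fold in SKBR-3 (log2 -2.11, -2.64 to -1.67) and rose 2.45-fold in BT474m1 (1.29, 0.95 to 1.67). The tables also list SNHG3-RCC1, a readthrough of SNHG3 into RCC1, a chromatin-bound regulator of nuclear transport, and reads can be divided between them. SNHG3-RCC1 read 416, 233, 323 and 203 units in SKBR-3 and 157, 351, 162 and 357 in BT474m1. The sum of SNHG3 and the readthrough had a log2 fold change with lapatinib of -1.08 in SKBR-3 and 1.19 in BT474m1. RCC1 itself read 1880.4 units in the SKBR-3 library with DMSO and 1300.0 in that with lapatinib (log2 -0.53), and the BT474m1 pair read 763 and 395 (log2 -0.95).

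SNHG12, a host of H/ACA and C/D snoRNAs that lies next to SNHG3, read 129, 106, 219 and 140.6 units in SKBR-3 under DMSO, lapatinib, JQ1 and the combination. Its values in BT474m1 were 127, 306, 199 and 323 units. The lines were alike with DMSO (log2 difference -0.02, -0.30 to 0.26), and the values with lapatinib, alone or with JQ1, were higher in BT474m1. Its log2 fold change with lapatinib was -0.27 in SKBR-3 (-0.61 to 0.05) and 1.26 in BT474m1 (1.05 to 1.49). With JQ1 it was the highest of the 6 hosts in both lines, at 0.76 and 0.64.

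**Figure D3:**
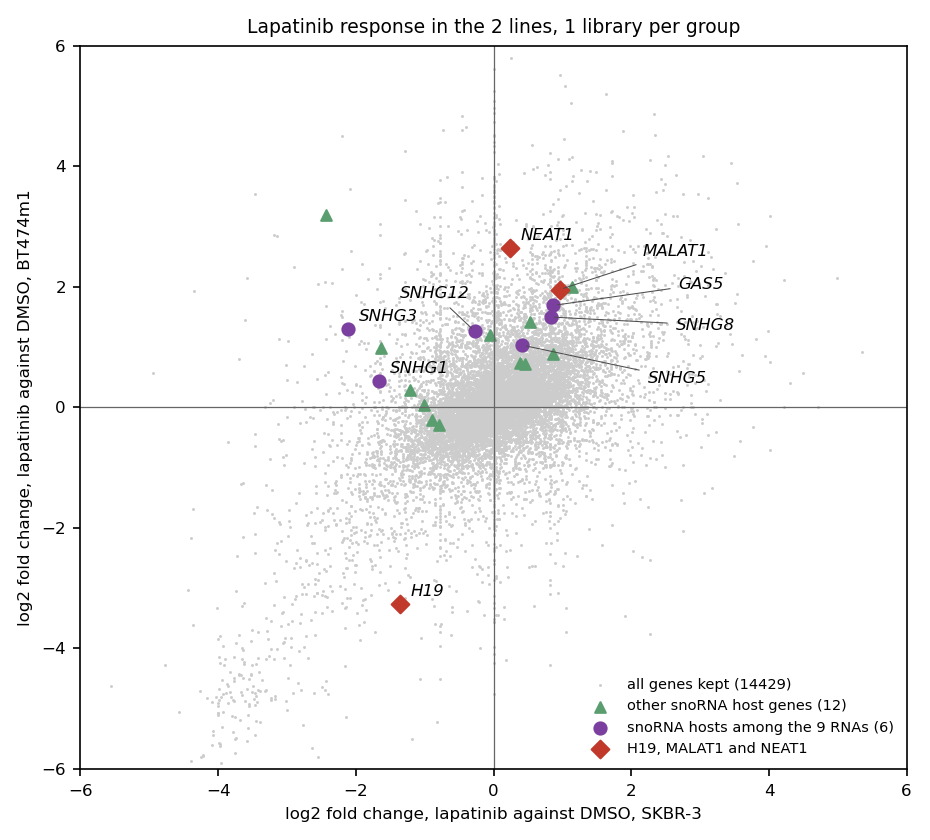
Log2 fold change with lapatinib against DMSO in SKBR-3 (horizontal) and BT474m1 (vertical) for the 14429 kept genes (grey, 11 outside the drawn range), with the 6 host genes as circles, 12 other snoRNA hosts as triangles, and H19, MALAT1 and NEAT1 as diamonds. SNHG1, SNHG3 and SNHG12 lie left of 0 and above 0, H19 lies below 0 on both axes, and GAS5, SNHG5 and SNHG8 lie above 0 on both.

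The other snoRNA host genes, a list of 13 of which 12 were in the tables and passed the filter, were counted in the same way. With lapatinib 1 of the 12 rose and 4 fell in SKBR-3 (median -0.42 on the log2 scale), and 4 rose and none fell in BT474m1 (median 0.81). The medians of the 6 hosts were 0.07 and 1.28, and those of all kept genes 0.05 and 0.07. The mean of the 6 hosts was -0.32 in SKBR-3, opposite in sign to their median, and 1.20 in BT474m1. ZFAS1, a host of box C/D snoRNAs, had log2 fold changes of 0.86 and 0.88, near each other in the lines. EPB41L4A-AS1, host of SNORA13, had the highest log2 fold change of the list in SKBR-3 (1.14) and read 124, 275, 96.0 and 385 units there and 82.5, 332, 84.1 and 240.2 in BT474m1. SNHG4, host of SNORA74A, was the lowest of the list in SKBR-3 and the highest in BT474m1, with 47.5 units with DMSO and 8.00 with lapatinib in SKBR-3 and with 0.523 and 12.9 in BT474m1. The BT474m1 value with DMSO lay below that of 3 reads, so that no fold is given. With JQ1 1 of the 12 rose and 1 fell in SKBR-3, and 0 rose and 1 fell in BT474m1. With both drugs 2 rose and 4 fell in SKBR-3, and 4 rose and none fell in BT474m1.

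The snoRNAs themselves could not be followed. Of 27 snoRNAs listed as residents of the 6 hosts, 25 were in the tables, 17 were listed at 0 in all libraries, none reached the filter, and the highest value was 6.10 units. These short RNAs carry no poly(A) tail, and its part in their values was not tested. The 10 listed proteins that form or assist the snoRNA particles had a median of -0.68 in SKBR-3 given lapatinib, where 3 of the 10 fell, and of -0.19 in BT474m1. NOLC1, a nucleolar chaperone of these particles, was the lowest in SKBR-3 (-1.30), and none of the 10 fell in BT474m1.

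Ribosomal protein genes and other mRNAs known for a TOP start were set beside the hosts. Of 79 cytosolic ribosomal protein genes, none passed 2-fold in any comparison of a drug with DMSO, and their medians with lapatinib were -0.06 in SKBR-3 and 0.30 in BT474m1. The 15 other listed TOP mRNAs, which encode translation factors and related proteins, had medians of 0.10 and 0.35, with none past 2-fold with lapatinib. TPT1, a growth-related translationally controlled protein, was the highest of them in SKBR-3 (0.79) and EIF4B, an activator of the eIF4A helicase, in BT474m1 (0.99). The 10 listed factors of nonsense-mediated decay had medians of -0.12 and -0.07 with lapatinib, and SMG9 in BT474m1 (-1.49) was the only one past 2-fold. With JQ1 the medians of these 3 lists lay between -0.14 and 0.08 in both lines. EEF1D, a translation elongation factor subunit, rose by 1.18 with JQ1 in SKBR-3 and TPT1 by 1.16 there with both drugs.

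**Figure D4:**
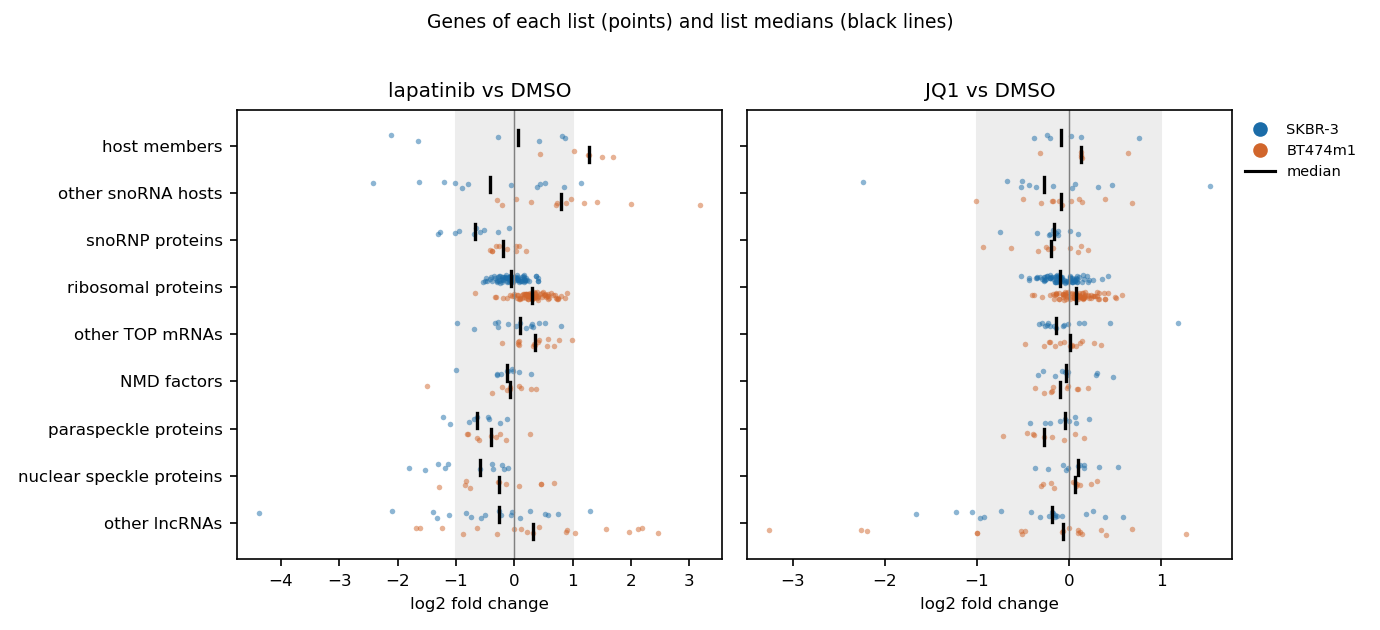
Log2 fold change with lapatinib (left) and JQ1 (right) of the kept genes of 9 lists, with SKBR-3 in blue, BT474m1 in orange, black lines at list medians and a grey band for changes under 2-fold. With lapatinib the host members have medians of 0.07 in SKBR-3 and 1.28 in BT474m1, and the ribosomal protein genes stay within the band.

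Among 26 other long noncoding RNAs listed, 22 were in the tables and 19 passed the filter. MIAT was listed at 0 in all 4 BT474m1 libraries and passed through SKBR-3 alone. CYTOR, at most 8.54 units in BT474m1, also passed through SKBR-3 alone. UCA1, at most 7.87 units in SKBR-3, passed through BT474m1 alone. Neither CYTOR nor UCA1 was set aside in the counts. With lapatinib 1 of the 19 rose and 5 fell in SKBR-3. In BT474m1 6 of the 18 other than MIAT rose and 3 fell, CYTOR among the latter. The medians over the 19 were -0.26 and 0.33 on the log2 scale. DLEU2, the host of the miR-15a and miR-16 precursors, was the lowest in both lines, with 99.0 units with DMSO and 3.83 with lapatinib in SKBR-3 and with 114 and 34.9 in BT474m1. NBR2, transcribed from the promoter that it shares with BRCA1, was the highest in SKBR-3 (1.31), and UCA1, first described in urothelial carcinoma, in BT474m1 (2.46). With JQ1 none rose and 3 fell in SKBR-3, and 1 rose and 3 fell in BT474m1. CYTOR was among the falls in BT474m1, from 8.54 units with DMSO to 0 with JQ1. NORAD, which binds PUMILIO proteins, was the highest with JQ1 in SKBR-3 (0.59) and MIR22HG, the miR-22 host, in BT474m1 (1.27).

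The 9 RNAs fell into a few patterns over the 8 libraries when each was centred on its mean within a line. GAS5, SNHG5 and SNHG8 had pairwise Pearson coefficients between 0.95 and 0.97, SNHG1 and SNHG3 of 0.91, MALAT1 and NEAT1 of 0.89, and NEAT1 and SNHG12 of 0.92. H19 was opposite to GAS5 (-0.92), SNHG8 (-0.90) and MALAT1 (-0.89). SNHG1 and GAS5 were at -0.42. These coefficients describe 8 libraries that share 2 DMSO controls and the same 4 treatments, and have no p-value.

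**Figure D5:**
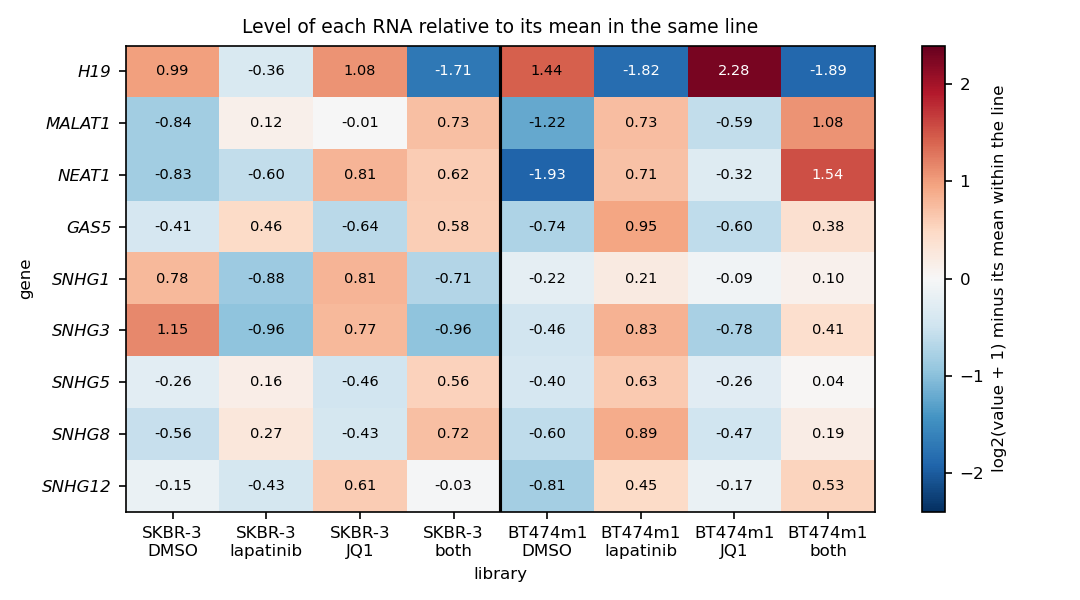
Level of each RNA, as log2(value + 1) minus its mean over the 4 libraries of the same line, with red above and blue below that mean. GAS5, SNHG5 and SNHG8 are above their mean in the libraries with lapatinib in both lines. SNHG1, SNHG3 and SNHG12 are below theirs in those of SKBR-3 and above it in those of BT474m1. SNHG12 lies close to its mean (-0.03) in the SKBR-3 library with both drugs.

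Among 9827 genes with 100 units or more in at least 1 library of each line, the gene most like each RNA was taken by the same coefficient over the 8 libraries. For H19 these were RIOX1 (0.996), CAPZA1 and DLD, a histone and ribosomal oxygenase, an actin capping protein and a mitochondrial dehydrogenase subunit. RIOX1 ran from 308 to 565 units, a far narrower range than that of H19. For MALAT1 they were CYTH1 (0.997), ZNF567 and CLK3, and for NEAT1 H2AC25 (0.996), GPR89A and CCNL1. CLK3 is a kinase of splicing factors and CCNL1 a cyclin of nuclear speckles. For GAS5 the first was EPB41L4A-AS1 (0.99), the snoRNA host described above, followed by ADD3 and ZNF7. For SNHG1 they were PDCD11 (0.98), GTPBP3 and DUS1L, of which PDCD11 acts in ribosomal RNA processing and the others modify transfer RNA. For SNHG3 they were ESF1 (0.99), a nucleolar protein, PNN and MPP3. For SNHG5 EIF3M (0.99), a translation initiation subunit, SPIN1 and SLC35D2 came first, for SNHG8 PTPN14 (0.99), RSC1A1 and VCPIP1, and for SNHG12 VPS16 (0.98), AP1G2 and ANKRD13D. With 8 libraries and so many genes compared, values this high describe the ranking and nothing more.

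In the RefSeq gene spans GAS5 overlaps ZBTB37, SNHG12 overlaps TRNAU1AP and SNHG3 overlaps RCC1. Whether reads were counted by strand is uncertain, because the labels name a stranded kit in one field and another kit in a second field, so reads of overlapping genes may not be told apart. ZBTB37 read between 45.4 and 133 units and TRNAU1AP between 183 and 415.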

How the data were processed

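Poly(A) RNA from 8 cultures was sequenced (1 library per group, groups from the labels). For every gene the authors deposited a signal, the RSEM estimate of its read count scaled to an upper quartile of 1000. The submitters' processing notes name hg19, RSEM, Picard 1.88, SAMtools 1.2 and R 3.2.2, whereas the study's methods text describes a newer assembly, aligner and quantifier, so the build of the tables is uncertain and no position is taken from them. Their DESeq and DESeq2 1.12.3 entries concern steps not used here.

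The step between values gave the worth of 1 read, and 83.8% to 85.2% of values above 0 were then whole reads within 0.02. Fractional values arise where reads are divided between genes. Genes with 10 units or more in at least 1 of 8 libraries were kept (14429 of 20531). Log2 fold changes are differences of log2(value + 1), which understates changes of low genes, and a change was called at 2-fold. Clopper-Pearson 95% intervals on reads, exact Poisson intervals on levels and the floor of 3 reads (1.41 to 2.30 units) cover counting error only, since reads from PCR that carry no molecular identifier need not stem from separate molecules. Tables were matched to RefSeq by Entrez identifier, transcript lengths came from GENCODE release 44, and neighbours from RefSeq order. matplotlib 3.10.9, scipy 1.17.1, pandas 2.3.3 and numpy 2.4.6 were run in Python 3.11.15, and the scripts were tested on simulated data.

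The 9 RNAs, the gene lists and the tests were chosen with earlier results of these data known. Named genes were the 9 RNAs, the highest and lowest of each list, the 3 genes most like each RNA, MYC and IGF2. The histone list, the neighbouring genes, SNHG3-RCC1 and other genes given values were chosen after their values were seen. Alternatives were scaling to equal totals or by median ratios, a pseudocount of 10, a filter at 100 or none, list means, other treatments in place of DMSO between lines, and the shortest transcript. The canonical transcript and the sum of SNHG3 with SNHG3-RCC1 were added after seeing the data. The treatment time, 48 h, is that of the labels.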

Additional observations from a re-analysis of the deposited data

Results flagged for a closer look

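Some comparisons gave changes of opposite sign in the lines. With 1 library per group none of these differences between lines was tested.

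SNHG1 had a log2 fold change with lapatinib of -1.66 in SKBR-3, against 0.43 in BT474m1. With both drugs against DMSO it had -1.49 and 0.32. SNHG3 had -2.11 and 1.29 with lapatinib, and -2.11 and 0.87 with both drugs. SNHG8 had 0.45 in SKBR-3 and -0.71 in BT474m1 for both drugs against lapatinib. Signs were also opposite there for SNHG5 (0.39 and -0.59) and GAS5 (0.12 and -0.57). With lapatinib SNHG12 had -0.27 in SKBR-3 (-0.61 to 0.05) and 1.26 in BT474m1. Each pair with DMSO uses the same DMSO libraries. SNHG3 was below the other 8 RNAs in 6 of the 8 libraries, with 45.0 reads in SKBR-3 with lapatinib and 99 in BT474m1 with DMSO.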

How the results depend on the processing

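A fit that pairs each drug library with the DMSO library of its line was not made, and no library could be left out of a group of 1. Each count of the 9 RNAs past 2-fold stayed within 1.5 times its value with a pseudocount of 10, with scaling by the median of ratios and with equal totals. Of the 81 fold changes of the 9 RNAs, 0 crossed 2-fold with a pseudocount of 10, 2 with the median of ratios and 0 with equal totals, and 0, 1 and 3 changed sign, all of them under 0.14 in size. The median of all kept genes shifted by over 0.1 on the log2 scale with the median of ratios for both drugs against lapatinib in SKBR-3 (0.11) and between the lines (-0.16), and with equal totals for JQ1 in SKBR-3 (-0.14). The difference of SNHG3 between the lines, -1.68 with DMSO, was 1.72 with the lapatinib libraries and 1.30 with both drugs in their place. Summing SNHG3 with SNHG3-RCC1 moved its fold changes by up to 1.02 and took 1 of 9 across 2-fold. The 2 calls that changed with the median of ratios were SNHG5 with lapatinib in BT474m1 (0.98) and GAS5 with both drugs in SKBR-3 (1.13). List means in place of medians turned the sign of the 6 host genes in SKBR-3 with lapatinib (-0.32) and with both drugs (-0.06, median 0.47). Depth limits SNHG3 and the BT474m1 values of H19 with lapatinib among others, and cultures without replicates limit all of the values.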

Other observations

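MYC, which binds the E-box searched for in the promoters, read 2143, 1350, 1879 and 1416 units in SKBR-3 under DMSO, lapatinib, JQ1 and the combination. The BT474m1 values were 463, 2312, 37.2 and 60.1 units. Its log2 fold change with lapatinib was -0.67 in SKBR-3, against 2.32 in BT474m1. That with JQ1 was -0.19 and -3.60.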
